A study of Mus musculus with 76 samples.

Results

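Mature neural cultures of the inbred mouse strains WSB/EiJ (WSB) and C57BL/6J (B6), derived from embryonic stem cells, were compared in the presence of ID-8, which inhibits the kinase Dyrk1a. Members were the 8 libraries that the deposited table places in these groups, 4 a strain, of 70 libraries (76 sequenced samples) in the series. The series followed cultures of both strains at a neural progenitor stage, at neuronal maturation and after axon injury. All 8 libraries came from cultures with ID-8 and none was axotomized. The 8 maturation libraries without ID-8, 4 a strain, are called the control cultures. Each group of 4 came from 2 culture experiments, with replicates 1 and 2 in the first and replicates 3 and 4 in the second. RNA was taken from the whole culture dish, so that neurons, glia and any other cells were measured together, and each strain is represented by the stem cells of that strain alone.

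ID-8 blocks Dyrk1a, a dosage-sensitive kinase that acts on cell cycle exit, on the transcription factors of the NFAT family and on neuronal differentiation. Cultures of this kind contain neurons, astrocytes and some non-neural cells such as fibroblast-like and contractile cells. Type I interferon signalling starts when a sensor of foreign or misplaced nucleic acid induces interferon, which binds its receptor and activates transcription factors such as Stat2 and Irf9. These factors switch on a large set of antiviral genes and raise class I antigen presentation, in neurons and glia as in other cells.

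Library totals ran from 25.21 to 29.37 M counts (M, mega) in WSB and from 31.6 to 41.74 M in B6, so the B6 libraries were all deeper. Of 38924 genes in the table, 16954 passed the filter on low counts, and 10864 of these shared under 5% of their transcript sequence with another gene. The target of the inhibitor, Dyrk1a, was read at 111.7, 144.8, 157.2 and 137.2 library-size scaled counts (CPM; 1 CPM is 1 count in each M counts) in B6 and at 91.2, 116.3, 108.2 and 165 CPM in WSB. The strains overlapped, with a log2 difference of -0.20 ± 0.17 (SE) at an adjusted p of 0.476, and an exact permutation test on log2(CPM + 1) gave a two-sided p of 0.343 (0.0286 is the smallest it can give). An inhibitor acts on the protein, so the mRNA level is no check of its action.

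Under ID-8, 2925 of 16954 genes differed between the strains (edgeR quasi-likelihood test, adjusted p under 0.05), which is 17.3%. Of these, 1574 were higher in WSB (9.28% of the genes tested) and 1351 lower (7.97%). Among genes with little shared sequence, 987 were higher (9.09%) and 776 lower (7.14%), with 666 and 253 of them at least 2-fold and 217 and 100 at least 4-fold apart. The median gene differed by 0.001 on the log2 scale. In the control cultures, 2505 genes differed between the strains (14.8%), 1252 higher (7.38%) and 1253 lower (7.39%). Among genes with little shared sequence, 6.89% were higher and 6.85% lower there. Of the 987 genes higher in WSB under ID-8, 378 were also called higher in control cultures (38.3% of the ID-8 list and 50.5% of the control list), and 11 were called lower there. For the 776 lower genes, the overlap was 380 (49% and 51.1%), with 2 called the opposite way. Across the 10864 genes, the strain difference under ID-8 correlated with that in control cultures at r = 0.68 and rho = 0.61, given as a description because the strains' genomes and the reference are shared by both sides. The difference of the strain differences (ID-8 minus control), tested for each gene, was called for 78 genes (0.46%), 64 positive (0.377%) and 14 negative (0.0826%). It is the measure used here to say where the ID-8 comparison departed from the control comparison. With culture experiment as a block, 27.4% of genes were called under ID-8 (27% of those with little shared sequence), 27.2% in control cultures and 1.91% for the difference of the strain differences. Replicates of a group were separate libraries from 2 experiments, and p-values measure only the spread between them, which may be partly technical.

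**Figure D1:**
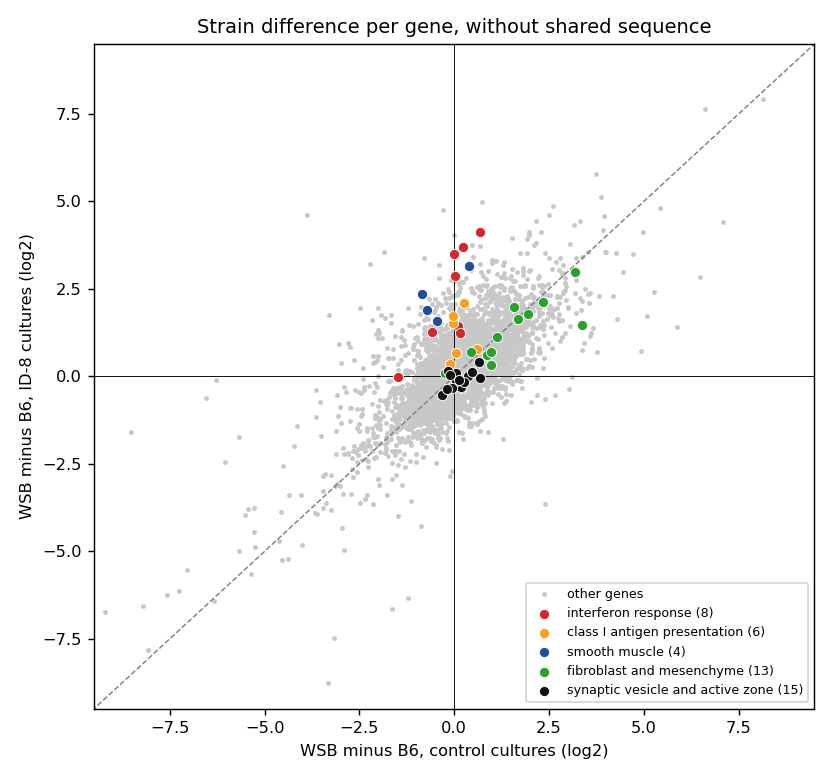
Each point is 1 of 10864 genes with little shared sequence. The x axis gives its log2 strain difference (WSB minus B6) in control cultures and the y axis that in ID-8 cultures. Members of the interferon response, class I, smooth muscle, fibroblast and synaptic vesicle lists are coloured. Most grey points lie along the diagonal, while interferon response, class I and smooth muscle genes lie above it. The fibroblast and synaptic vesicle lists lie near it, with median differences (ID-8 minus control) of -0.16 and -0.25.

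The genes that separated the strains most clearly were of many kinds, and most of them separated the control cultures too. Pla2g4e, a cytosolic phospholipase, stood at 1.17, 1.62, 0.410 and 0.503 CPM in B6 and at 22.6, 21.9, 34.3 and 23.0 CPM in WSB. The groups were far apart, by 4.80 ± 0.37 on the log2 scale (adjusted p 1.89e-07), and by 5.42 ± 0.39 in control cultures. Ptprv, a receptor-type phosphatase gene, was higher by 4.44 ± 0.43, Lcat, the enzyme that esterifies cholesterol in lipoproteins, by 2.81 ± 0.26, and Tfpi, an inhibitor of tissue factor in coagulation, by 1.58 ± 0.14. C1qtnf3, a secreted protein of the C1q and tumour necrosis factor family, was higher by 2.73 ± 0.22. These last 4 genes were also called higher in the control cultures of WSB, by 1.14 to 3.31.

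In the other direction, Elovl7, which lengthens long-chain fatty acids, stood at 29.0, 33.4, 33.1 and 31.8 CPM in B6 and at 9.53, 9.96, 10.3 and 8.51 CPM in WSB. The groups did not overlap, with every WSB library below every B6 library, as for 9.99% of all genes. It was lower in WSB by a log2 of -1.73 ± 0.12 (adjusted p 4.19e-08), and by -1.22 ± 0.12 in control cultures. Aifm2, an enzyme that protects membranes from lipid peroxidation, differed by -1.34 ± 0.11, and Uqcc1, an assembly factor of respiratory complex III, by -1.12 ± 0.10. Hjurp, the chaperone of the centromeric histone, differed by -1.15 ± 0.13, and Pttg1, the securin gene, by -5.24 ± 0.62. Ccl28, a mucosal chemokine, was at 3.11 to 5.58 CPM in B6 and at 0.103 to 0.236 CPM in WSB, a log2 difference of -4.83 ± 0.33. All of these were called lower in the WSB control cultures as well. The genome build named for the counts, GRCm38, is of C57BL/6J, and the part of sequence differences in such fixed gaps was not tested.

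Over both experiments together, the interferon response separated the strains under ID-8 and hardly at all without it. Of 14 genes in the interferon response list, 12 were higher in WSB under ID-8, with a median log2 difference of 2.27, against 9.28% of all genes. In control cultures, 1 of the 14 was called higher (Oas1a), against 7.38% of all genes, and the median was 0.06. The difference of the strain differences had a median of 2.41 and was called for 4 of the 14 (Ifit3, Irf9, Oasl2 and Usp18), or for 12 with culture experiment as a block. The genes not called under ID-8 were Rsad2 and Mx1. Among the 8 members with little shared sequence, 7 were called higher. In each library the summed level of the list was 117.4 to 131.1 CPM in B6 and 345 to 663 CPM in WSB, without overlap. In control cultures it was 284.4, 311.4, 248.9 and 240.5 CPM in B6 and 352.6, 325.9, 187.3 and 194.1 CPM in WSB. There, WSB lay above B6 in the first experiment and below it in the second. Bulk RNA cannot tell fewer cells that express a gene from less RNA of that gene per cell.

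Ifi44, an interferon-induced gene outside that list, had the smallest p of the difference of the strain differences together with Ptn. It stood at 0.628, 0.711, 0.748 and 0.804 CPM in B6 and at 19.6, 29.7, 17.1 and 12.9 CPM in WSB under ID-8, and at 5.01 to 14.7 CPM and 4.25 to 11.5 CPM in the B6 and WSB control cultures. The control ranges overlapped and the ID-8 ranges did not. The log2 strain difference was 4.77 ± 0.45 under ID-8 (adjusted p 2.02e-06) and -0.31 ± 0.38 in control cultures, and their difference was 5.07 ± 0.57 (adjusted p 0.00115). Usp18, which removes the ubiquitin-like protein Isg15 and dampens the interferon receptor, stood at 1.41, 0.905, 0.651 and 0.955 CPM in B6 and at 21.1, 22.9, 10.2 and 14.9 CPM in WSB. Its strain difference was 4.14 ± 0.51 (adjusted p 3.3e-05), and 3.45 ± 0.65 beyond that in control cultures (adjusted p 0.0247). Bst2, the membrane tether of budding virus, was at 6.60, 3.72, 3.23 and 2.69 CPM in B6 and at 74.8, 62.8, 23.6 and 23.8 CPM in WSB. Every WSB library again lay above every B6 library, by 3.51 ± 0.65 (adjusted p 0.0015), though the excess over control cultures of 3.52 ± 0.86 was called only with the experiment block (adjusted p 0.105 without it and 0.000231 with it).

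**Figure D2:**
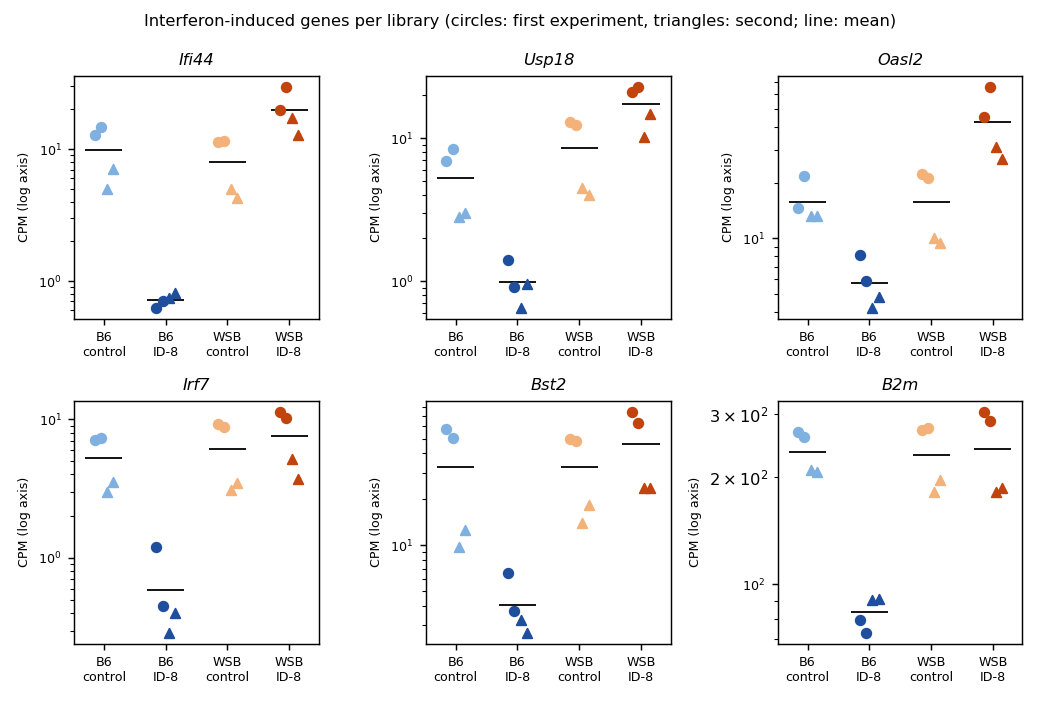
Each panel plots CPM on a log axis for 1 interferon-induced gene in the 16 maturation libraries, with a point for each library (circles for the first experiment, triangles for the second) and a line at the group mean. In every panel the 4 WSB ID-8 libraries lie above the 4 B6 ID-8 libraries, for example B2m at 182 to 304 CPM against 73.1 to 91.1 CPM.

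Along the pathway, most genes called higher in WSB were transcription factors and effector genes. This wider list of 43 tested genes was assembled after the data were seen, so its counts are a description. Of the 43, 17 were higher in WSB and 3 lower, against 9.28% and 7.97% of all genes. The receptor, adaptor and kinase genes are so few that a lack of higher calls does not set them apart from other genes. No ligand gene of the list (Ifnb1, Ifna4, Ifng, Ifnl2, Ifnl3) passed the filter on low counts. Of 6 receptor genes, none was higher and Ifnlr1, a subunit of the interferon lambda receptor, was lower (-1.06 ± 0.33). Of 7 nucleic acid sensors, the RNA sensors Ddx58 (1.85 ± 0.21) and Ifih1 (1.28 ± 0.33) were higher and the DNA sensor Aim2 was lower (-2.12 ± 0.50). None of 4 adaptor and signalling genes and neither of 2 receptor kinases was called: Jak1 differed by -0.03 ± 0.20 and Tyk2 by 0.30 ± 0.17. Of 8 transcription factors, 4 were higher, among them Irf7 at 3.71 ± 0.56, Irf9 at 1.43 ± 0.17 and Stat2 at 1.24 ± 0.19. Irf7, which amplifies the production of interferon, was at 1.20, 0.452, 0.290 and 0.402 CPM in B6 and at 11.3, 10.2, 5.19 and 3.72 CPM in WSB, with no overlap. Among 16 effector genes, 11 were higher, such as Parp14 (2.11 ± 0.39), Xaf1 (2.52 ± 0.50), Trim25 (1.15 ± 0.27) and Lgals3bp (1.39 ± 0.20), and Adar, the RNA-editing deaminase, was lower (-0.41 ± 0.13). In all, Ddx58, Irf9, Ifi44, Parp9 and Lgals3bp of the 43 had a called excess over control cultures.

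Class I antigen presentation followed the same direction. Of 12 genes, 9 were higher in WSB under ID-8, with a median of 1.10, against 9.28% of all genes. In control cultures 1 was higher and 1 lower, with a median of 0.01, against 7.38% and 7.39% of all genes. The 3 not called under ID-8 were H2-D1, Psmb10 and Pdia3. With the experiment block the count was 11, against 14.6% of all genes. B2m, the light chain of every class I molecule, stood at 79.5, 73.1, 90.3 and 91.1 CPM in B6 and at 303.9, 285.9, 182 and 186 CPM in WSB. All WSB libraries were higher, by 1.52 ± 0.20 (adjusted p 6.8e-05), against -0.03 ± 0.19 in control cultures, and the 2 values differed by 1.55 ± 0.28 (adjusted p 0.0196). The immunoproteasome subunit Psmb9 was higher by 2.09 ± 0.39, and the class I transcriptional activator Nlrc5 by 1.72 ± 0.38. The heavy chain gene H2-K1 was higher by 2.43 ± 0.18, while H2-D1 differed by -0.06 ± 0.16 under ID-8 and by -1.14 ± 0.16 in control cultures. These heavy chain genes vary between strains and share 22.8% and 26.9% of their sequence with other genes, so their counts are uncertain. Markers of microglia and macrophages, immune cells that such cultures could hold, summed to 29.0 to 32.9 CPM in B6 and to 51.4, 47.8, 21.5 and 56.4 CPM in WSB. Thus 3 of the 4 WSB libraries lay above every B6 library and replicate 3 below them. Of 6 tested markers, 0 were called over all libraries (median log2 difference 0.38), 1 was higher with the experiment block, and 2 were higher and 0 lower within each experiment. Tyrobp, a defining marker, was at 0 in all 8 libraries. The part of such cells in the interferon and class I differences was not tested.

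The start sites of these genes are shown because the genes moved together. Interferon-stimulated genes are known to carry a response element whose core is GAAA, any 2 bases and GAAA again, near the start of transcription. In RefSeq windows from 250 bases before to 50 after the start (build GRCm38.p6), this sequence was found on either strand, counting overlapping matches, in 1079 of 27025 genes (3.99%). It was found in 8 of the 11 interferon response genes that had a window (72.7%) and in 2 of 10 class I genes (20%). A match describes the letters and is no evidence of binding. The stretches run 5′ to 3′ on the gene's strand from 10 bases before the first match to the start of transcription, with matches in capitals (a match on the other strand appears as its reverse complement). They are Ifit3 chr19:34583363-34583528 on the plus strand, Bst2 chr8:71537473-71537612 on the minus strand, Stat2 chr10:128270266-128270497 on the plus strand and B2m chr2:122147538-122147686 on the plus strand.
Ifit3: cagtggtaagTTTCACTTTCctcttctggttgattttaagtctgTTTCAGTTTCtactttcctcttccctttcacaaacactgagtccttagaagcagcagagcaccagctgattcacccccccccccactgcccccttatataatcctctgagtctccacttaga
Bst2: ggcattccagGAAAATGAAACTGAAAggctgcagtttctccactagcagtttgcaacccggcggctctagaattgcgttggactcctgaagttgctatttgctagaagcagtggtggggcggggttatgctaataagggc
Stat2: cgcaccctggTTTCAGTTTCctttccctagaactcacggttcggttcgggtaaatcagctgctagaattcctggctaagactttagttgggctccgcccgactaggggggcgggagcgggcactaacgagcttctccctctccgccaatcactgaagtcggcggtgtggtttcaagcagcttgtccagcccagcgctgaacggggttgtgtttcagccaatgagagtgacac
B2m: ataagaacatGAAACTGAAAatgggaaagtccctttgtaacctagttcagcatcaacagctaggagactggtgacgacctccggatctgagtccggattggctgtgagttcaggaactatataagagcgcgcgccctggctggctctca
Ifit3, whose window held 2 matches, was at 29.9, 19.6, 21.9 and 23.1 CPM in B6 and at 198, 218, 121 and 119.4 CPM in WSB, a difference of 2.80 ± 0.28 (adjusted p 4.57e-06) that exceeded that in control cultures by 2.63 ± 0.38 (adjusted p 0.00616). It shares 61.8% of its sequence with other genes and is given as uncertain. Rsad2 also carried the sequence and was not called, at -0.03 ± 0.46.

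Genes of contractile cells formed the other block that separated the strains under ID-8 more than without it. All 8 genes of the smooth muscle list were higher in WSB, with a median of 2.16, against 9.28% of all genes. In control cultures 1 of 8 was called higher (Des), against 7.38% of all genes, and the median was -0.09. The difference of the strain differences had a median of 2.70 and was called for 3 of 8 (Lmod1, Cnn1 and Myh11), or for 8 with the experiment block. Acta2, smooth muscle actin, stood at 229, 127, 135 and 111 CPM in B6 and at 874, 515, 173 and 704 CPM in WSB. WSB replicate 3 lay well below the other WSB libraries and B6 replicate 1 above it, so the ranges overlapped. The log2 difference was 1.91 ± 0.43 (adjusted p 0.0059). Lmod1, which nucleates actin filaments in smooth muscle, was at 9.53, 6.53, 8.95 and 6.33 CPM in B6 and at 57.6, 36.2, 14.8 and 51.6 CPM in WSB, without overlap. It differed by 2.35 ± 0.35 (adjusted p 0.000244), and by 3.20 ± 0.48 beyond control cultures (adjusted p 0.00756). Des, the intermediate filament of muscle, was at 0.126 to 0.241 CPM in B6 and at 4.09 to 12.8 CPM in WSB, a difference of 5.47 ± 0.50. Across the list, 6 of 8 genes had all WSB libraries above all B6 libraries, against 9.89% of all genes. The list's summed level was 256 to 535 CPM in B6 ID-8 libraries and 639 to 2725 CPM in WSB ID-8 libraries, against 2197 to 4647 CPM and 1423 to 3879 CPM in the control cultures.

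**Figure D3:**
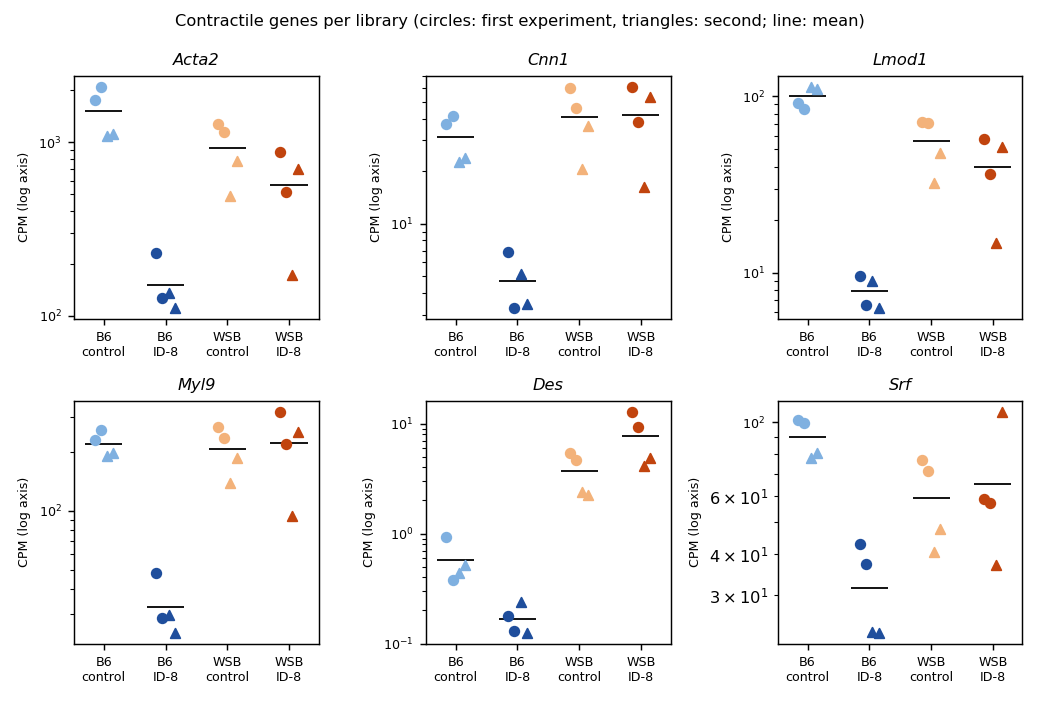
Each panel plots CPM on a log axis for 1 contractile gene in the 16 maturation libraries (circles for the first experiment, triangles for the second, line at the group mean). By its mean, B6 with ID-8 is the lowest group for Acta2, Cnn1, Lmod1 and Myl9, and 1 WSB ID-8 library, replicate 3, sits below the other 3.

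A wider list of 22 filament, adhesion and regulator genes linked to serum response factor was also assembled after the data were seen, so its counts are a description. It had 10 genes higher in WSB and 0 lower, against 9.28% and 7.97% of all genes. Srf itself, the transcription factor that drives contractile genes, was at 42.9, 37.4, 23.2 and 23.1 CPM in B6 and at 58.5, 57.0, 36.9 and 107.5 CPM in WSB. WSB replicate 3 lay within the B6 range, and the difference was 1.04 ± 0.30 (adjusted p 0.0265). Its coactivator genes Mrtfa (-0.29 ± 0.13), Mrtfb (-0.66 ± 0.28) and Myocd (-0.12 ± 0.85) were not called. Of 7 filament genes 4 were higher, among them the myosin light chain Myl9 (2.76 ± 0.33) and tropomyosin Tpm2 (1.85 ± 0.43). Of 11 adhesion and regulator genes 5 were higher, among them Vcl (1.14 ± 0.29) and Flna (1.15 ± 0.26), which anchor actin at the membrane, and Pdlim3 (2.83 ± 0.29). The CArG box, the site of serum response factor, was found in 1.81% of the 27025 windows and in 0 of the 6 smooth muscle genes with a window, which says only that these letters are not there.

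Matrix and mesenchymal genes were higher in WSB as well. Of 16 extracellular matrix genes, 11 were higher under ID-8 (median 1.14), against 9.28% of all genes. In control cultures 3 were higher and 1 lower (median 0.48), against 7.38% and 7.39% of all genes. The difference of the strain differences had a median of 0.55 and was called for 1 of the 16, Lama5, a basement membrane laminin chain. Lama5 was higher in WSB under ID-8 (1.16 ± 0.17) and lower in control cultures (-0.66 ± 0.17), which differed by 1.82 ± 0.24. Without WSB replicate 1 or without B6 replicate 4 the count was 7. Of 13 fibroblast and mesenchyme genes, 5 were higher under ID-8 and 6 in control cultures, against 9.28% and 7.38% of all genes. The medians were 1.13 and 1.14. Col1a2, a chain of type I collagen, stood at 49.5, 55.6, 47.3 and 47.5 CPM in B6 and at 581, 532.7, 171 and 295 CPM in WSB, and differed by 2.98 ± 0.38 under ID-8 and 3.18 ± 0.39 in control cultures. The endothelial genes Cdh5 (2.25 ± 0.54), Kdr (2.24 ± 0.42) and Emcn (2.55 ± 0.71) were higher, 3 of 6 tested, against 9.28% of all genes. The list summed to 6.61 to 16.2 CPM in B6 and 13.0 to 49.3 CPM in WSB. The count was 2 without WSB replicate 1, B6 replicate 3 or B6 replicate 4. The fibroblast list summed to 529 to 1083 CPM in B6 and 1199 to 3354 CPM in WSB under ID-8. In control cultures it summed to 718 to 1093 CPM and 1949 to 4789 CPM, so WSB lay higher there too, unlike for the smooth muscle list. The part of other cell types in the contractile differences was not tested.

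Neuronal genes were lower in WSB in the first experiment and higher in the second. Over all libraries, 0 of 16 pan-neuronal genes were called (median -0.22), as were 0 of 18 synaptic vesicle genes (median -0.11). A fit with a separate group for each strain, treatment and experiment, added after the data were seen, gave the strain difference within each experiment from 2 libraries a strain. In the first experiment, 9 of 16 pan-neuronal genes were lower in WSB and 0 higher (median -0.62; 16.1% of all genes were lower and 19.5% higher). In the second, 9 were higher and 0 lower (median 0.61; 17.4% of all genes were higher and 15.2% lower). The change between experiments was itself called for 14 of 16, all positive, with a median of 1.23, against 9.48% of all genes called positive and 9.08% negative. Synaptic vesicle genes did the same, with 13 of 18 lower in the first experiment, 9 higher in the second and 14 called between them. For glutamatergic and GABAergic receptor genes, 7 of 18 were lower and 1 higher in the first experiment, 11 were higher and 1 lower in the second, and 13 changed upward and 1 downward (Gabra2).

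The neurofilament genes show the pattern, and were picked after their values were seen. Nefh, the heavy neurofilament chain, stood at 379 and 376 CPM in the 2 B6 libraries of the first experiment and at 46.3 and 57.4 CPM in those of the second. In WSB it stood at 147 and 226 CPM and then at 260.5 and 163 CPM. WSB was lower in the first experiment (-1.02 ± 0.22, adjusted p 0.00282) and higher in the second (2.03 ± 0.23, adjusted p 2.11e-05), with a difference between them of 3.04 ± 0.31 (adjusted p 0.000197). Nefl, the light chain, stood at 1294 and 1236 and then 275 and 315.7 CPM in B6, and at 416 and 487 and then 605 and 393 CPM in WSB. Its strain difference was -1.49 ± 0.17 and then 0.76 ± 0.17. Stmn2, a growth cone protein that binds tubulin, differed by -0.82 ± 0.16 and then by 0.61 ± 0.16. Under ID-8 the summed pan-neuronal level differed more between experiments in B6 than in WSB: it was 7764, 7590, 3061 and 3182 CPM in B6 and 4379, 5157, 5770 and 3974 CPM in WSB. In control cultures the sums were 4153, 3876, 3628 and 3235 CPM in B6 and 2888, 2938, 4639 and 4637 CPM in WSB, so there it was WSB that differed more between experiments, and WSB again lay below B6 in the first experiment and above it in the second.

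Cell cycle genes differed between the strains mainly in the first experiment. Over all libraries 10 of 24 were higher in WSB (median 0.95), against 9.28% of all genes. Within the first experiment 18 were higher (median 1.69), against 19.5% of all genes. In the second 3 were higher and 5 lower (median 0.04), shares near the 17.4% and 15.2% of all genes. The change between experiments was called for 16 of 24, all negative, against 9.08% of all genes. Mki67, a marker of dividing cells, was at 0.359, 0.711, 0.314 and 0.276 CPM in B6 and at 12.4, 7.59, 1.22 and 1.03 CPM in WSB. The 2 WSB libraries of the first experiment were far above the others, and the strain difference was 4.22 ± 0.42 there and 1.91 ± 0.48 in the second. Leaving out WSB replicate 1 left 3 of the 24 called over all libraries, and leaving out WSB replicate 2 or B6 replicate 4, or fitting only the 8 ID-8 libraries, left 5.

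**Figure D4:**
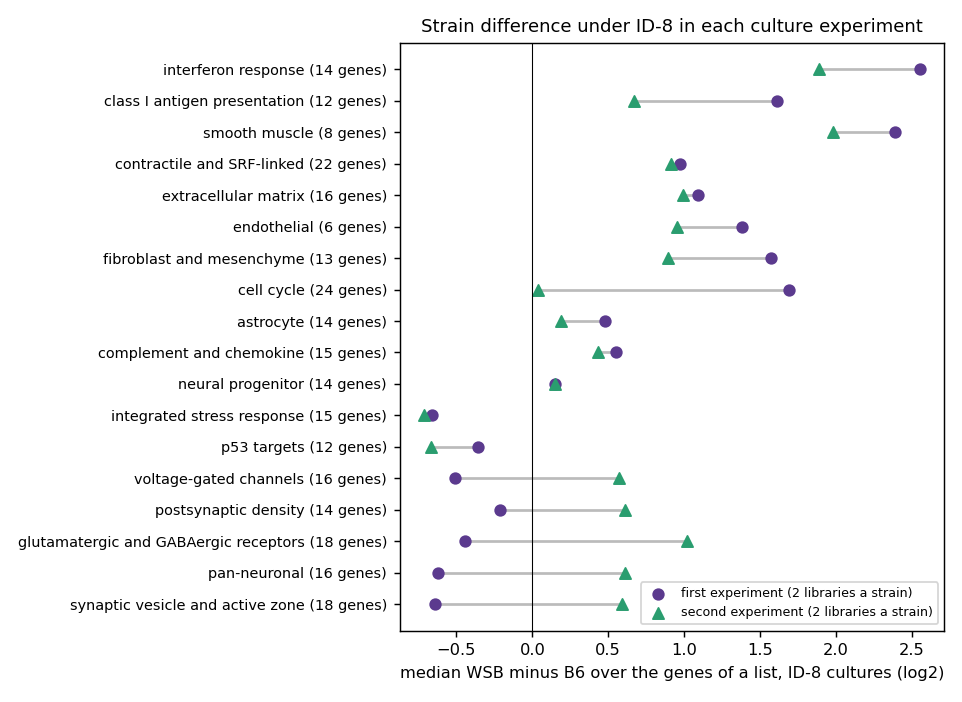
For each of 18 gene lists, the x axis gives the median log2 strain difference (WSB minus B6) under ID-8 in the first (circle) and second (triangle) culture experiment, with 2 libraries a strain in each. Interferon, class I, contractile and matrix lists lie right of 0 in both, from 0.67 to 2.55, whereas pan-neuronal and synaptic lists lie left of 0 in the first and right of 0 in the second.

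The blocks described first kept their direction in both experiments, in fits with 2 libraries a strain in each. Of all genes, 19.5% were higher in the first, and 17.4% were higher and 15.2% lower in the second. The difference was called lower in the second than in the first for 9.08% of all genes. Of the interferon response genes, 13 of 14 were higher in the first (median 2.55) and 11 in the second (median 1.89), and for 3 the difference was smaller in the second. Class I genes were higher in 11 and 7 of 12, with 1 lower in the second, and 9 had a smaller strain difference in the second (median of the change -0.88). All 8 smooth muscle genes were higher in both, with medians of 2.39 and 1.98, and the change between them was called for 1. Matrix genes were higher in 14 and then 10 of 16.

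Glial genes were less uniform. Of 14 astrocyte genes, 1 was called over all libraries, against 17.3% of all genes. It was Gfap, the astrocyte intermediate filament, at 852, 714, 551 and 589.5 CPM in B6 and at 4260, 3608, 3913 and 2663 CPM in WSB. The groups were well apart (2.42 ± 0.53, adjusted p 0.00516), and Gfap was called higher in WSB control cultures too (1.61 ± 0.52). With the experiment block 3 astrocyte genes were higher, against 14.6% of all genes. Within the first experiment 8 were higher and 0 lower (median 0.48), against 19.5% and 16.1% of all genes. In the second 4 were higher and 3 lower (median 0.19), against 17.4% and 15.2%. The change was called for 4, all negative, against 9.08% of all genes. Aldh1l1 (-0.50 ± 0.50), Slc1a2 (-0.67 ± 0.59) and Aldoc (0.12 ± 0.32), which mark mature astrocytes, were not called. In the oligodendrocyte lineage list of 9, 2 genes were lower, against 7.97% of all genes, among them the lineage factor Olig2 (-1.13 ± 0.30). The 1 higher, against 9.28%, was Pdgfra (1.64 ± 0.42), a receptor of the precursors that mesenchymal cells also carry. Markers of neural progenitors were called in 0 of 14, against 17.3% of all genes, with a median of 0.04.

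Complement and signalling genes included some of the sharpest departures from the control cultures. C3, the central complement component, stood at 333, 373, 434.5 and 476 CPM in B6 and at 1370, 2243, 642 and 446 CPM in WSB. It was higher in WSB under ID-8 (1.54 ± 0.42, adjusted p 0.0178), with the ranges overlapping through WSB replicate 4, and lower in WSB control cultures (-1.66 ± 0.42). Under ID-8 the call was lost without WSB replicate 2 (1.01), with only the 8 ID-8 libraries (1.57) and in the second experiment alone (0.26). The difference of 3.20 ± 0.59 was called (adjusted p 0.0216). In its list of 15 complement and chemokine genes, 5 were higher and 1 lower under ID-8, against 9.28% and 7.97% of all genes. In control cultures 1 was higher and 5 lower, against 7.38% and 7.39%. The 5 higher under ID-8 became 2 without WSB replicate 1, WSB replicate 2 or B6 replicate 4. They became 3 without B6 replicate 3 or with only the 8 ID-8 libraries. Ptn, pleiotrophin, a growth factor of neurons and glia, was at 115.1, 103.6, 101.5 and 91.7 CPM in B6 and at 41.4, 34.7, 46.1 and 30.6 CPM in WSB. It was lower by -1.43 ± 0.15 under ID-8 and differed by 0.45 ± 0.15 in control cultures, a change of -1.88 ± 0.21 (adjusted p 0.00115). Crym, a thyroid hormone binding protein, went the other way, at 0.965 to 1.58 CPM in B6 and 8.65 to 17.8 CPM in WSB (3.41 ± 0.28, and 2.93 ± 0.36 beyond control cultures). Igfbpl1, a relative of the insulin-like growth factor binding proteins, was at 1.71 to 5.30 CPM in B6 and 24.1 to 62.5 CPM in WSB (3.75 ± 0.40, and 3.29 ± 0.52 beyond control cultures).

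Several stress genes were lower in WSB. Of 12 p53 target genes, 5 were lower and 0 higher under ID-8 (median -0.55), against 7.97% and 9.28% of all genes. In control cultures 3 of the 12 were lower and 0 higher (median -0.41), against 7.39% and 7.38% of all genes. Among the 12, 0 had a called difference of the strain differences. Under ID-8 the 5 were Phlda3 (-0.88 ± 0.13), Zmat3 (-0.92 ± 0.18), Mdm2 (-0.67 ± 0.21), Bbc3 (-0.96 ± 0.24) and Pmaip1 (-0.92 ± 0.25). They include the inhibitor of p53 and 2 inducers of apoptosis. The count was 3 when any of WSB replicate 1, WSB replicate 3, B6 replicate 3 or B6 replicate 4 was left out. Cdkn1a, the cell cycle inhibitor, differed by -0.65 ± 0.25 and was not called. Of 15 genes of the integrated stress response, 3 were lower (median -0.64), against 7.97% of all genes. They were Asns (-0.76 ± 0.15), Psat1 (-0.72 ± 0.17) and Slc7a11 (-2.72 ± 0.67), which make asparagine and serine and import cystine. The count was 7 with the experiment block, 6 with DESeq2, 5 without B6 replicate 1 and 8 without WSB replicate 4. In control cultures 7 were lower, against 7.39% of all genes, and none had a called difference of the strain differences.

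Positional and imprinted genes split by member. Of 23 Hox genes, 4 were higher in WSB (Hoxa2, Hoxa3, Hoxc4, Hoxd3), against 9.28% of all genes. Another 5 were lower (Hoxa7, Hoxa9, Hoxb9, Hoxd8, Hoxd9), against 7.97%. The higher ones lie at the anterior end of their clusters and the lower ones further along, an order that was not tested. Among the 14 with little shared sequence, 1 was higher and 4 lower. In the first experiment 4 of 23 were higher and 9 lower, against 19.5% and 16.1% of all genes. In the second 12 were higher and 3 lower, against 17.4% and 15.2%. Hoxa2, Hoxa3, Hoxa7 and Hoxd3 share 13.7% to 61.17% of their sequence with other genes, and their counts are uncertain. Hoxb9 stood at 44.8, 46.4, 53.1 and 60.6 CPM in B6 and at 8.91, 8.70, 12.6 and 16.7 CPM in WSB (-2.13 ± 0.24, adjusted p 1.42e-05), with no overlap and nearly the same gap in control cultures (-2.18 ± 0.24). Of 19 imprinted genes, 3 were higher and 2 lower, against 9.28% and 7.97% of all genes, with a median of 0.05. The paternally expressed growth factor Igf2 (1.95 ± 0.50), its neighbour H19 (1.40 ± 0.34) and Ndn (0.68 ± 0.22) were higher. Dlk1 (-1.77 ± 0.41) and Rtl1 (-1.80 ± 0.33), neighbours on chromosome 12, were lower. Dlk1 stood at 291.9, 331.9, 88.2 and 95.4 CPM in B6 and at 50.1, 58.4, 77.01 and 50.6 CPM in WSB, so the gap was widest in the first experiment, and in the second experiment alone neither Dlk1 (-0.52) nor Rtl1 (-0.84) was called. Of 18 genes around Dyrk1a and NFAT, 4 were called, a share near the 17.3% of all genes, with a median of 0.01. Ccnd1, cyclin D1, was higher (0.97) and Dyrk3 (-0.57), the calcineurin subunit Ppp3ca and the feedback inhibitor Spry2 (-0.84) were lower. The call of Ppp3ca was lost when any 1 of the 8 libraries was left out, that of Ccnd1 without WSB replicate 1 or 2 or any B6 library, and that of Dyrk3 without B6 replicate 3.

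Genes of chromosome 8 were higher in WSB as a whole. Over its 480 genes with little shared sequence and a mean log2 CPM of at least 1, the median strain difference under ID-8 was 0.22, and 73.8% lay above 0. The other chromosomes compared, of 20, had medians from -0.07 to 0.08 with 41.8% to 62.5% above 0. The 4 WSB libraries stood at 0.24, 0.28, 0.17 and 0.19 above the B6 mean on the log2(CPM + 1) scale, and the 4 B6 libraries at -0.01, -0.03, 0.01 and 0.01, so every WSB library was above every B6 library. Dividing the chromosome into 8 stretches of 60 genes gave medians of 0.16 to 0.30 along its whole length. The control cultures gave 0.26. As a difference of mean log levels scaled by library totals alone, the median was 0.24 in progenitor cultures without and 0.25 with ID-8. On that scale, which the axon-stage values below also use, the maturation cultures gave 0.27 without and 0.22 with ID-8. In the 4 strain comparisons at the axon stage the median of chromosome 8 was near or below 0 but above that of every other chromosome: -0.02 against at most -0.11, -0.10 against at most -0.15, 0.00 against at most -0.05, and -0.02 against at most -0.07. Bst2, Pdlim3, Lcat, Nlrc5, Cdh5, Col4a1 and Col4a2 lie on this chromosome; their differences were 1.12 to 3.51.

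**Figure D5:**
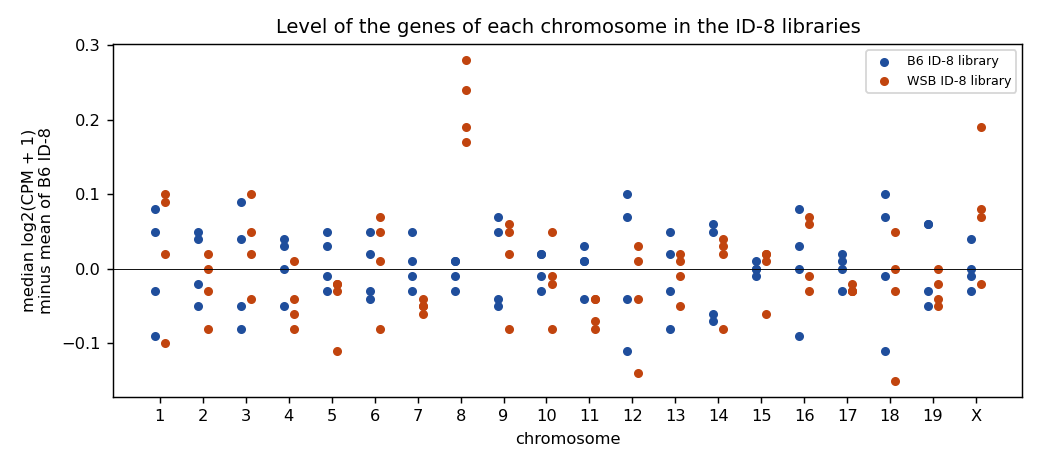
For each chromosome, points give the median log2(CPM + 1) of its genes in each ID-8 library minus the B6 ID-8 mean (B6 and WSB in different colours). On chromosome 8 the 4 WSB libraries lie at 0.17 to 0.28 while the B6 libraries lie at -0.03 to 0.01.

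Some of the steepest strain differences belonged to genes with near-identical copies, and for Gapdh, Kpna2, Tdg and Rps2 the gap was far smaller once the copies were summed. Gapdh, the glycolytic enzyme, was read at 2622 ± 677 CPM (SD, n = 4) in B6 and at 59.6 ± 4.65 CPM in WSB, while its pseudogene Gm12033 on chromosome 11 was read at 0.599 and 835 CPM. With the counts of all 87 genes of shared sequence added together, the levels were 2861 ± 745 and 2261 ± 243 CPM, with overlapping ranges. Kpna2, a nuclear import receptor, went from 55.4 against 1.49 CPM alone to 55.7 against 52.1 CPM over 6 genes, Tdg, a DNA glycosylase, from 54.3 against 5.24 to 54.3 against 52.0 CPM over 4 genes, and Rps2, a ribosomal protein, from 814 against 9.03 to 816 against 897 CPM over 32 genes. Ahcy, which clears S-adenosylhomocysteine, stayed lower in WSB after summing, at 70.4 ± 10.7 against 49.4 ± 5.96 CPM over 4 genes. The calls on these single genes and copies are therefore uncertain. The pair shows how little separates such copies: over the 1587 coding bases of Kpna2, 3 differ from Gm10259 (99.8% identity). The stretches are 90 bases of coding sequence, from exon 7 of Kpna2 (chr11:106991243-106991332, minus strand) and from Gm10259 (chr3:25211850-25211939, minus strand; build GRCm38), with the differing bases in capitals.
Kpna2: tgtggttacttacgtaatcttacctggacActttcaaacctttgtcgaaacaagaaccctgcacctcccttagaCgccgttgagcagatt
Gm10259: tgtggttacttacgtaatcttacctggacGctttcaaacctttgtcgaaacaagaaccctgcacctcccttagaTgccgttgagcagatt
Within this stretch of the reference genome, of the C57BL/6J strain, only the bases in capitals tell the gene from the copy. WSB counts of Gm10259 were 49.2 CPM against 0.0314 CPM in B6. Which bases the WSB reads carried was not examined, and the part of these bases in the shift of counts was not tested.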

How the data were processed

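RNA of 16 maturation libraries (8 with ID-8, 8 control) was analysed here, of 70 libraries (76 sequenced samples) in the series. The authors deposited unscaled expected counts per gene, of which 9.318% were not whole. The submitters' processing notes name Bowtie2, RSEM, featureCounts and limma, and build GRCm38; versions, roles and the annotation release are not given in the sources used here. GRCm38 is a C57BL/6J genome and no WSB genome is named, and counting WSB reads on such a reference can move reads of diverged genes to near-identical copies. Identifiers were matched to symbols of GENCODE M21 on GRCm38 (37607 with a symbol, 1317 without, which held 0.242% of maturation counts). Groups and experiments came from the labels.

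Expected counts were rounded, filtered with filterByExpr, scaled by TMM and fitted with the robust edgeR 4.0.16 quasi-likelihood test (R 4.3.3) over all 16 libraries, which share 1 estimate of spread. The contrasts were WSB minus B6 under ID-8, in control cultures, and the difference of these. Genes were called at a Benjamini-Hochberg adjusted p under 0.05 over all 16954 genes tested. CPM values are TMM-scaled, except in the comparison of chromosome 8 across stages, where counts were divided by library totals alone. A gene has little shared sequence where under 5% of its distinct 31-mers occur in another gene. Between replicates, chi-square over its degrees of freedom was 11.46 to 283.49, so no pair behaved as 1 library deposited again. The procedure was tested on simulated data with known changes. Alternatives were RLE size factors, DESeq2 1.42.0, no filter, culture experiment as a block, each library left out, only the 8 ID-8 libraries, and each experiment alone; a fit over 8 groups of 2 libraries was added after seeing the data.

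The gene lists and comparisons were chosen with earlier results of these data known. Named genes were, among called genes with mean log2 CPM of at least 1, a standard symbol and little shared sequence, in each direction the 15 of lowest p whose fold was 2 or more, up to 4 of each list, 10 in each direction for the difference of strain differences, Dyrk1a, and 6 in each direction with shared sequence. Other list members and the examples for the experiments were named after their values were seen. Some genes that the rule names are not reported here. Permutation tests used log2(CPM + 1).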

Additional observations from a re-analysis of the deposited data

Results flagged for a closer look

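In 10 of 292 groups of 4 libraries checked (3.42%), over 146 named genes and both strains under ID-8, 1 library stood far from the other 3. Chance gives about 1 in 20. In WSB these were Pla2g4e in replicate 3 (34.3 CPM), Lhx3 in replicate 3 (1.42 CPM), Efcab7 in replicate 4 (10.5 CPM), Mpzl3 in replicate 4 (1.62 CPM), Cdh1 in replicate 4 (10.75 CPM) and Bbc3 in replicate 4 (16.8 CPM). In B6 they were Tfpi (26.75 CPM), Pdlim3 (4.66 CPM) and Uqcc1 (97.96 CPM) in replicate 1, and Rpl3-ps1 in replicate 3 (0.0724 CPM).

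For 31 named genes the strain difference under ID-8 differed from that in control cultures by the edgeR test of the difference itself. The values are log2 strain difference under ID-8 minus control. Interferon and class I genes were Ifi44 (5.07), Usp18 (3.45), Oasl2 (2.87), Ifit3 (2.63), Ddx58 (1.95), B2m (1.55), H2-K1 (1.52) and Irf9 (1.32). Contractile and adhesion genes were Pgm5 (3.76), Lmod1 (3.20), Myl9 (2.84), Cnn1 (2.78) and Actn1 (1.65). The epithelial cadherin Cdh1 gave 3.96, of which 1 WSB library was far above the others. Other positive values were Igfbpl1 (3.29), C3 (3.20), Crym (2.93), Car3 (2.28), Lama5 (1.82), Ahnak2 (1.66), Scpep1 (1.64) and Pdia4 (1.18). Negative values were Dkk2 (-2.61), Ptn (-1.88), Ntsr2 (-1.87), Grem1 (-1.68), Ddit4l (-1.58), Fjx1 (-1.57), Efcc1 (-1.37), Pcsk6 (-1.29) and Vhl (-0.86). The 12 other settings were tried for only 20 genes, 10 in each direction. They were not tried for Usp18, Oasl2, Ifit3, B2m, H2-K1, Irf9, Cnn1, Actn1, Cdh1, Igfbpl1, C3 or Car3. The call was lost in 7 settings for Dkk2, 7 for Vhl, 5 for Ntsr2, 3 for Ddit4l and 2 for Efcc1. Each loss came on leaving out 1 library, except for Vhl without the filter on low counts. It was lost in 0 for Ptn, Grem1, Fjx1, Pcsk6 and the positive genes tried.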

How the results depend on the processing

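Of the 145 genes named for the strain difference under ID-8, 106 kept their direction and call under every setting. For the difference of strain differences, 15 of the 20 genes checked did so. None of these reversed. The count of 2925 genes under ID-8 became 1938 with only the 8 ID-8 libraries, 5386 in the first experiment alone and 5634 in the second alone, and 2149 to 2910 without each library. For genes with little shared sequence the 1763 became 1103, 3552 and 3714, and 1238 to 1749. The cause was not tested. Of the 2925 calls, 1862 (63.7%, only the 8 ID-8 libraries) to 2924 (DESeq2 and the block) remained under each setting, and 4 changed sign in the second experiment alone. The 78 genes for the difference of strain differences became 340 with DESeq2 and 45 to 142 without each library (45 without WSB replicate 2, 50 without B6 replicate 4, 142 without WSB replicate 3); the cause was not tested. Counting only members with little shared sequence gave 7 interferon, 4 class I and 4 smooth muscle genes, since fewer members were counted. The 11 matrix genes became 7 with only the 8 ID-8 libraries and 7 to 13 without each library. RLE scaling moved the median gene by -0.004.

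With culture experiment as a replicate block, 4642 genes were called under ID-8 (2938 with little shared sequence), 4608 in control cultures and 323 for the difference of strain differences. Block values are given beside the results they changed. Replicate numbers did not pair all samples: deviations of B6 and WSB libraries of the same experiment correlated above 0.1 in 5 of 8 pairs (-0.043 to 0.529), those of different experiments in 1 of 8, and those of the same number in 3 of 4.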

Other observations

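Within the first experiment, 19.5% of all genes were higher in WSB and 16.1% lower, and within the second 17.4% and 15.2%. The change between experiments was called positive for 9.48% of all genes and negative for 9.08%. Of 16 voltage-gated channel genes, 6 were lower and 1 higher in WSB in the first experiment (median -0.51), 7 were higher and 0 lower in the second (median 0.57), and 8 had a called change between experiments, all positive. Of 12 genes of GABAergic identity, 4 were lower in the first, 6 higher in the second and 7 called between them, all positive. Glutamatergic identity genes gave no such split: of 7, 1 was lower in the first (median -0.03), 2 were higher and 1 lower in the second (median -0.14), and 2 positive and 1 negative changes were called. Of 14 postsynaptic density genes, 3 were lower in the first, 8 higher in the second and 8 called between them. Of 23 Hox genes, 4 were higher and 9 lower in the first, and 12 higher and 3 lower in the second. Of 10 monoaminergic genes, 2 were higher and 3 lower in the first, and 5 higher and 1 lower in the second. The 2 higher in the first and the 1 lower in the second lie near the shares of all genes. Over all libraries, 2 of these 10 genes were higher and 2 lower, against 9.28% and 7.97% of all genes. The serotonin transporter Slc6a4 (3.54 ± 0.75) and Th (1.56 ± 0.46), the first enzyme of dopamine synthesis, were higher. Dbh (-2.21 ± 0.72), which makes noradrenaline, and Nr4a2 (-1.11 ± 0.30) were lower. Slc6a4 was at 0 to 0.420 CPM in B6 and 0.780 to 3.15 CPM in WSB. Dbh was at 0.151 to 1.43 CPM in B6 and 0.0689 to 0.246 CPM in WSB, with overlap. The call of Th was lost without WSB replicate 2 or 3 or B6 replicate 3 or 4, that of Nr4a2 without B6 replicate 1 or 2 or WSB replicate 4, and that of Dbh without any 1 library except B6 replicate 4. Among glutathione and redox genes, Nqo1, a quinone reductase gene on chromosome 8, was at 9.34 to 24.6 CPM in B6 and 38.35 to 55.8 CPM in WSB (1.51, adjusted p 0.000661), while Gclc (-0.59) and Txnrd1 (-0.63), other enzymes of thiol defence, were lower. The calls of Gclc and Txnrd1 were lost without WSB replicate 1, 3 or 4 or B6 replicate 3 or 4, and with only the 8 ID-8 libraries.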
